A study of Mus musculus with 6 samples.

Results

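Polycomb repressive complex 1 (PRC1) is the machinery that monoubiquitinates histone H2A at a lysine near its end and compacts chromatin at silenced genes. The genes examined here were 9 listed PRC1 subunits: the RING-type ubiquitin ligases Ring1 and Rnf2, the PCGF proteins Bmi1 and Pcgf2, the chromobox proteins Cbx2, Cbx6, Cbx7 and Cbx8, and the polyhomeotic protein Phc2. They were listed by gene name, with earlier results of these data known, out of 55341 gene symbols in each count table. All 9 were found and passed the filter on low counts that kept 16343 genes. Another 6 paralogs (Pcgf1, Pcgf3, Pcgf5, Pcgf6, Phc1 and Phc3) were used to place the PCGF and PHC subunits within their families, and the 4 CBX genes were compared with each other.

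Poly(A) RNA-seq was performed on cultured mouse cerebellar granule neurons (CGNs) that had received the vehicle DMSO (n = 3 libraries) or GSK-126 (n = 3 libraries), a small molecule that blocks the catalytic activity of EZH2. EZH2 is the enzyme of Polycomb repressive complex 2 (PRC2), which trimethylates lysine 27 of histone H3 (H3K27me3). By the study's methods, granule neuron progenitors were purified from the pooled cerebella of CD1-IGS litters at P6-P8 and differentiated in culture. All cultures, the DMSO ones included, received cytosine arabinoside, which blocks the division of remaining non-neuronal cells. The labels gave cerebellum as the source, an agent and a replicate number, but neither a dose nor a day in culture. The methods describe addition of the inhibitor at DIV1 or, in another experiment, at DIV3, with harvest at DIV5, and the labels do not say which addition these libraries had. Granule neuron markers were present in every library. Their summed CPM (counts scaled to library size) ran from 3274 to 6197, and that of fibroblast markers from 6831 to 9848. CPM is not divided by gene length, and the collagen genes Col1a1, Col3a1 and Col1a2 held 2607, 2355 and 2149 CPM with DMSO. These sums therefore do not rank the amounts of these cell types. The libraries held 8058760 to 12047837 counts over genes. A gene was called changed at an adjusted p-value below 0.05 in the edgeR quasi-likelihood test, which was fitted over all 16343 genes with treatment as its only term and again with the replicate number as a block, since the numbers paired the libraries.

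In the PRC1 core, a RING subunit and a PCGF partner form the ubiquitin ligase. Canonical complexes add a CBX protein, whose chromodomain binds H3K27me3, and a PHC protein, whose SAM domain polymerizes and brings distant Polycomb sites together. Variant complexes carry RYBP or YAF2 in place of a CBX protein and reach chromatin without H3K27me3. Which paralog fills each position differs between stem cells, progenitors and differentiated cells. The RNA levels below are means over the mixed cells of each library. Which paralogs occur together in a cell, and their proteins, were not measured.

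The bases directly upstream of the RefSeq transcription start are shown for the more and the less abundant gene of 3 groups of paralogs (Rnf2 and Ring1, Bmi1 and Pcgf2, Cbx6 and Cbx7), to set the sequence beside levels that differed without overlap between their ranges. Each run covers 250 bases, 5′ to 3′ on the strand of the gene, in GRCm38.p6, with every CpG in capitals. They lie at chr1:151500992-151501241 (minus strand) for Rnf2, chr17:34024681-34024930 (minus) for Ring1, chr2:18676768-18677017 (plus) for Bmi1, chr11:97699649-97699898 (minus) for Pcgf2, chr15:79834334-79834583 (minus) for Cbx6 and chr15:79932647-79932896 (minus) for Cbx7.
Rnf2: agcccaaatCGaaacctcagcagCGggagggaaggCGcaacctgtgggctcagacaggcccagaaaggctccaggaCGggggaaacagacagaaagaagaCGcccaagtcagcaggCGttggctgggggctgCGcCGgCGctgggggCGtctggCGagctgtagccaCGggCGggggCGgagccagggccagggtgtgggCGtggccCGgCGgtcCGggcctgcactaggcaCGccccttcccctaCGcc
Ring1: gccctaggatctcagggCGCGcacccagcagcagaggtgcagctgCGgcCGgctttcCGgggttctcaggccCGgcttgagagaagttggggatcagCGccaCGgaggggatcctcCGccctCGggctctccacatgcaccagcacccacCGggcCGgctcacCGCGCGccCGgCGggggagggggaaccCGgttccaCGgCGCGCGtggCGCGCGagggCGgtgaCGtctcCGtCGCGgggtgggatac
Bmi1: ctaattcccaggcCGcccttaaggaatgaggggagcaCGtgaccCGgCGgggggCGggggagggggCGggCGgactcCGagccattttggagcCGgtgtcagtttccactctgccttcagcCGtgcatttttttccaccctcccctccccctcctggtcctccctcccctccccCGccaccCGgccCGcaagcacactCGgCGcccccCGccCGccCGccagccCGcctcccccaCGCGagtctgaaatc
Pcgf2: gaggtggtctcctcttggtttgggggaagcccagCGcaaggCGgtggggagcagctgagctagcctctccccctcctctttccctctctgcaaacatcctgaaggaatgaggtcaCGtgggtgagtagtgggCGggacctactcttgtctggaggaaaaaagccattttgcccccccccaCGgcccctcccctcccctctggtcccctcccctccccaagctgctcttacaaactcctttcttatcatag
Cbx6: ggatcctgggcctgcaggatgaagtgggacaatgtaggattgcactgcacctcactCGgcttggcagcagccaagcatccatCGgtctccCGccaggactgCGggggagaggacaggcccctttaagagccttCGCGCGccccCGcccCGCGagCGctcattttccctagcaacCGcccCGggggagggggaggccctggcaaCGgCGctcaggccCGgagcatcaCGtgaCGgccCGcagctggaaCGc
Cbx7: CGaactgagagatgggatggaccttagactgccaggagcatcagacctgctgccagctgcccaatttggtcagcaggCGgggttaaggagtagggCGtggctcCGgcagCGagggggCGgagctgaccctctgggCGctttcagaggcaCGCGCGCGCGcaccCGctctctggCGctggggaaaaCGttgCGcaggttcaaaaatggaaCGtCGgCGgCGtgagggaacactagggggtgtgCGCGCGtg

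Of the 9 subunits, 8 had a window in the RefSeq table, Phc2 with 3 alternative starts and the others with 1; Cbx2 had none. The more abundant paralog was not always the one with more CpG. Ring1, the less abundant ligase, had 30 CpG in its window, which 5.94% of all 32851 windows reached, while Rnf2 had 20 (17.9% of windows). Bmi1 had 21 CpG (16.3%) and Pcgf2 had 5 (55.6%), the lowest among the subunits with a single window. Cbx6 had 20 (17.9%), the weakly expressed Cbx7 had 23 (13.3%) and Cbx8 had 22 (14.8%). The 3 starts of Phc2 had 13, 1 and 34 CpG (31.5%, 92.1% and 3.53%). The median window held 6 CpG. Not every window lies upstream of the gene model used for the counts. On the minus strand, the models of Pcgf2, Cbx6 and Cbx7 begin at 97700497, 79834688 and 79971119, upstream of their windows. These windows lie inside the model, as do the Phc2 ones with 1 and 34 CpG. The Cbx8 window overlaps its model in part. The low CpG of Pcgf2 therefore describes an internal RefSeq start, and the bases upstream of its whole model were not examined. The palindromic E-box CACGTG was present in the windows of Bmi1, Pcgf2, Cbx6, Cbx8 and 1 of the 3 Phc2 starts, in comparison to 6.02% of all windows and 9.37% of the 12417 windows with at least 10 CpG. The GC box GGGCGG, searched on both strands, was present for all 8 subunits and in 32.7% of all windows (68.9% of the CpG-rich ones). These motifs are descriptions of the letters in the window and were not tested.

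RNA for all 4 positions of the complex was present in every library, and among the genes compared at each position a single paralog held the top of the order. On a per-length scale (RPKM, reads per kilobase of merged exons, scaled to library size), the DMSO means were 17.9 ± 1.23 for Rnf2, 19.9 ± 2.58 for Bmi1, 24.6 ± 5.05 for Cbx6 and 32.2 ± 8.23 for Phc2 (SD, n = 3). The other subunits lay lower, down to 0.791 ± 0.441 for Cbx7. The replicate numbers paired the 6 libraries, so the order is described by the ranges of the libraries and not by a test.

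**Figure D1:**
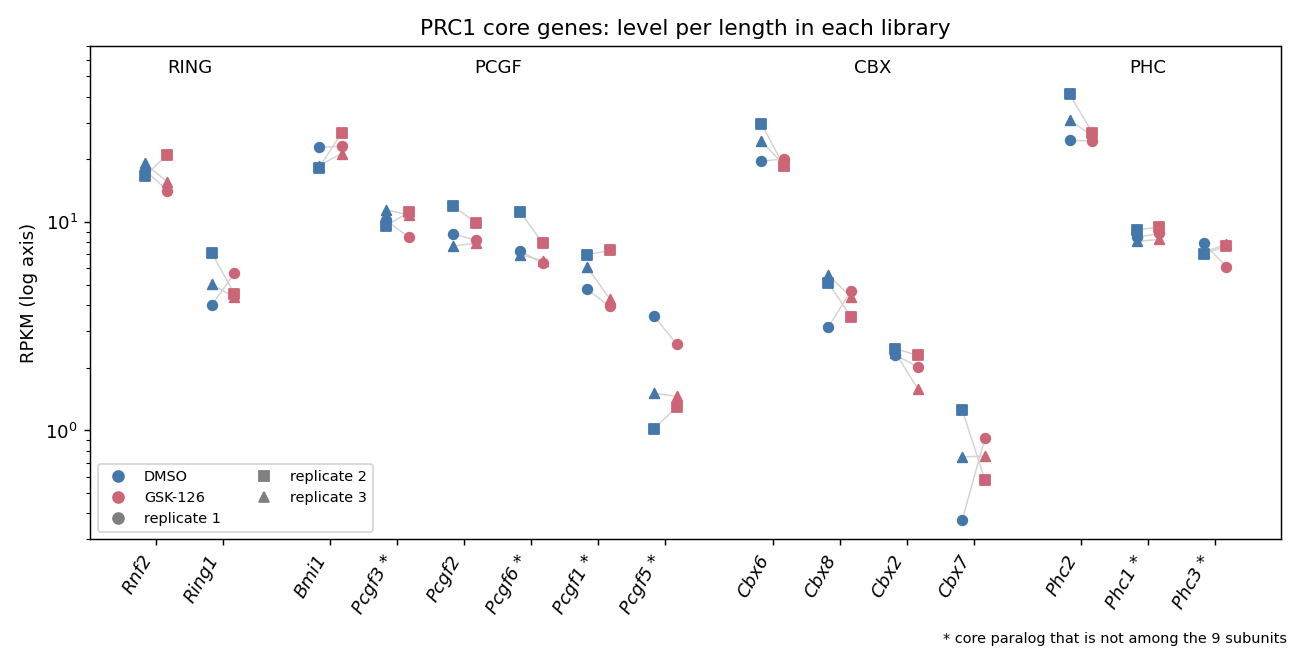
Level per length (RPKM, log axis) of the 9 PRC1 subunit genes and the 6 other core paralogs, marked with asterisks, in each of the 6 libraries. Colours give the agent, symbols the replicate number, and grey lines join libraries with the same number. Rnf2, Bmi1, Cbx6 and Phc2 lead the genes of their group, and Cbx7 lies lowest at 0.373 to 1.25 RPKM.

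Among the RING ligases, which carry the catalytic activity of PRC1, Rnf2 (chr1:151458004-151500955, minus strand) measured 17.8, 16.7 and 19.1 RPKM in DMSO replicates 1, 2 and 3 and 14.2, 21.0 and 15.6 in GSK-126 replicates 1, 2 and 3. Ring1 (chr17:34020792-34024680, minus strand), its paralog in the major histocompatibility region, measured 3.98, 7.13 and 5.03 with DMSO and 5.68, 4.53 and 4.36 with GSK-126. The lowest Rnf2 library was above the highest Ring1 library, and the DMSO means differed by a factor of 3.32. Rnf2 made up 77.0% ± 6.16 of the summed RING level with DMSO and 77.3% ± 5.49 with GSK-126 (exact permutation test, two-sided, p = 0.9), so the balance between the 2 ligases differed by less than the spread between replicates. The ratio of Rnf2 to Ring1 ran from 2.34 in DMSO replicate 2 to 4.64 in GSK-126 replicate 2.

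The PCGF position, which sets the type of PRC1, was led by Bmi1 (chr2:18677018-18686629, plus strand), the canonical subunit that sustains progenitor and stem cell proliferation. Bmi1 measured 22.8, 18.2 and 18.6 RPKM with DMSO and 23.1, 26.8 and 21.3 with GSK-126. Its lowest library exceeded the highest library of Pcgf3, the next in order (10.4 ± 0.965 RPKM with DMSO). Pcgf2 (chr11:97688823-97700497, minus strand), which replaces Bmi1 in other canonical complexes, measured 8.77, 11.95 and 7.67 with DMSO and 8.20, 9.94 and 7.91 with GSK-126. Its range overlapped those of Pcgf3 and Pcgf6 (8.50 ± 2.36 with DMSO), a subunit of germ line gene silencing complexes, so these 3 genes are not ordered beyond their spread, although Pcgf2 was above Pcgf6 in 6 of 6 libraries. Pcgf1 (5.94 ± 1.12), of the BCOR complex, and Pcgf5 (2.02 ± 1.34) lay lowest.

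Bmi1 held 35.4% ± 4.49 of the summed PCGF level with DMSO and 42.1% ± 1.61 with GSK-126. The shares in replicates 1, 2 and 3 were 39.8%, 30.8% and 35.6% with DMSO and 43.9%, 41.6% and 40.8% with GSK-126, so the groups did not overlap and the share was higher with GSK-126 in 3 of 3 pairs. The difference of 6.69 percentage points gave an exact two-sided permutation p of 0.1, the smallest that 3 against 3 libraries allow (adjusted p = 0.5 over the 15 shares compared). The share of Pcgf2 was 16.7% ± 3.09 and 15.4% ± 0.226. Pcgf6 was lower with GSK-126 in 3 of 3 pairs, with 15.03% ± 3.49 and 12.3% ± 0.228 (exact permutation p = 0.1, adjusted p = 0.5, sign-flip p = 0.25). The ratio of Bmi1 to Pcgf2 was 2.61, 1.52 and 2.43 with DMSO and 2.82, 2.698 and 2.694 with GSK-126 (exact permutation p = 0.1, without pairing or adjustment).

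The CBX position spanned the widest range of levels. Cbx6 (chr15:79823896-79834688, minus strand), a chromobox protein of canonical PRC1, measured 19.6, 29.7 and 24.5 RPKM with DMSO and 20.1, 18.5 and 18.8 with GSK-126. Its lowest library exceeded the highest library of the other listed CBX genes. Cbx8 (chr11:119036305-119040969, minus strand) measured 3.14, 5.10 and 5.56 with DMSO and 4.67, 3.51 and 4.37 with GSK-126. Cbx2 (chr11:119022962-119031270, plus strand), whose basic region compacts nucleosomes, measured 2.30, 2.47 and 2.36 with DMSO and 2.02, 2.29 and 1.58 with GSK-126. Cbx8 and Cbx2 lie side by side on chromosome 11, and the DMSO mean of Cbx8 was higher by a factor of 1.94 with no overlap between the ranges.

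Cbx7 (chr15:79915807-79971119, minus strand), the chromobox protein of embryonic stem cells, lay at the bottom with 0.373, 1.25 and 0.747 RPKM with DMSO and 0.924, 0.576 and 0.755 with GSK-126. It rested on few reads: the DMSO libraries held 21, 65 and 41 and the GSK-126 libraries 72, 31 and 43. The 95% Poisson intervals of the lowest and the highest count were 13.0 to 32.1 and 56.3 to 90.7, which cover counting error only. Cbx6 exceeded it by a factor of 36.3 ± 14.7 with DMSO and 26.3 ± 5.35 with GSK-126 (exact permutation p = 0.4). Cbx6 and Cbx7 lie on chromosome 15 with Apobec3 annotated between them, so genes that share a neighbourhood held the top and the bottom of the listed CBX genes.

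Within the summed level of the 4 listed CBX genes, Cbx6 made up 76.0% ± 1.86 with DMSO and 73.5% ± 0.934 with GSK-126. The values were 77.1%, 77.1% and 73.9% in DMSO replicates 1, 2 and 3 and 72.5%, 74.4% and 73.7% with GSK-126. The share was lower with GSK-126 in 3 of 3 pairs although the groups overlapped (exact permutation p = 0.2, adjusted p = 0.5, sign-flip p = 0.25). Cbx8 held 14.1% ± 2.33 and 16.03% ± 1.69, higher in 3 of 3 pairs (exact permutation p = 0.2, adjusted p = 0.5, sign-flip p = 0.25). Cbx2 held 7.53% ± 1.38 and 7.56% ± 1.53, and Cbx7 held 2.32% ± 0.894 and 2.87% ± 0.518, differences smaller than the SD of the DMSO libraries. The summed level of the 4 genes varied from 232 CPM in DMSO replicate 1 to 352 CPM in DMSO replicate 2 (CPM, scaled with TMM factors).

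Among the polyhomeotic genes, Phc2 (chr4:128654702-128752881, plus strand) measured 24.7, 41.0 and 30.8 RPKM with DMSO and 24.4, 26.9 and 26.0 with GSK-126. It exceeded Phc1 (8.57 ± 0.562 with DMSO) and Phc3 (7.36 ± 0.479) in every library. The 3 DMSO libraries spread over a wide range and the 3 GSK-126 libraries sat close to the lowest of them. The share of Phc2 was 66.3% ± 5.79 with DMSO and 61.6% ± 0.493 with GSK-126, a difference of -4.63 points (exact permutation p = 0.4, sign-flip p = 0.5).

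**Figure D2:**
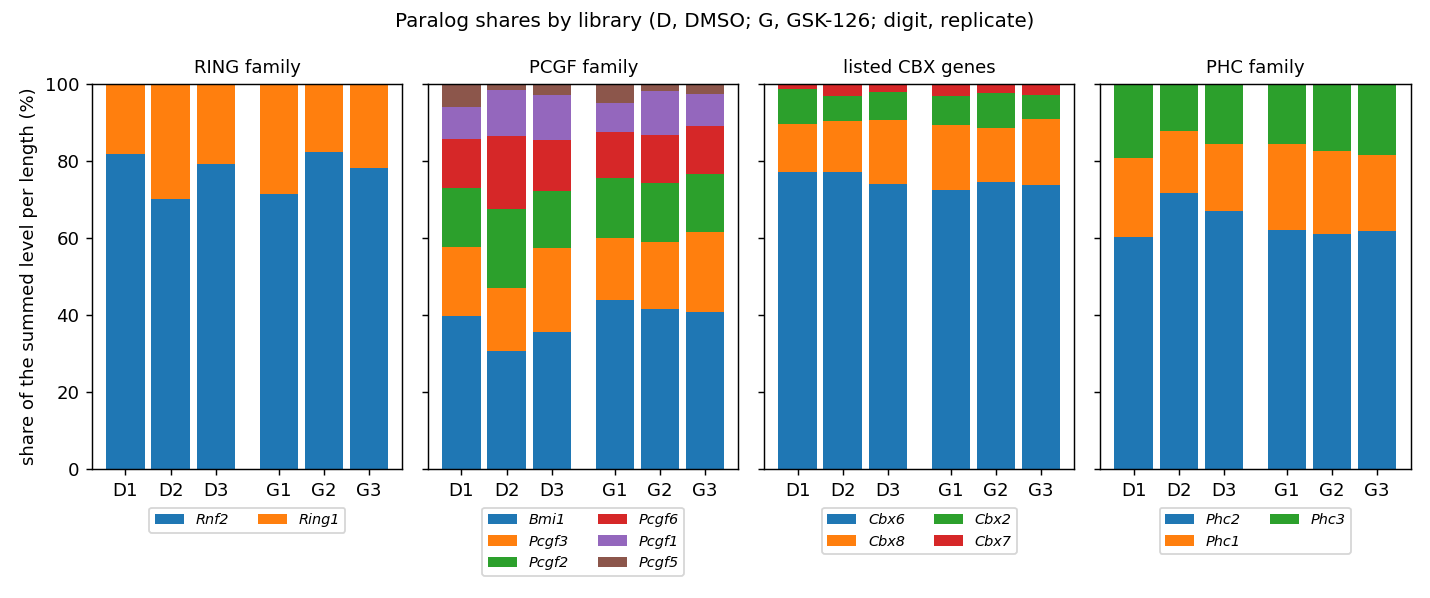
Share of the summed per-length level (percent) that each paralog held among the RING, PCGF, PHC and listed CBX genes, 1 stacked bar for each library (D, DMSO; G, GSK-126; digit, replicate). Bmi1 takes a larger part of the PCGF bars in the 3 GSK-126 libraries (40.8% to 43.9%) than in the 3 DMSO libraries (30.8% to 39.8%), and Cbx6 takes 72.5% to 77.1% of the bars of the 4 listed CBX genes.

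The order of the levels depended in part on the gene length used. Rnf2, Bmi1, Cbx6 and Phc2 led the genes they were compared with when length was taken from merged exons, the longest transcript or the mean coding transcript. With the mean coding transcript, Cbx7 lay above Cbx2 (3.88 ± 2.16 against 2.66 ± 0.0930 RPKM with DMSO, with overlapping ranges). The DMSO share then was 90.1% for Cbx6, 4.18% for Cbx8 and 2.43% for Cbx2. Below Bmi1, Pcgf6 came next with the longest transcript, in overlap with Pcgf2 and Pcgf3, and Pcgf5 came before Pcgf1 with the mean coding transcript, in overlap as well. Phc3 lay above Phc1 with the longest transcript (overlapping) and with the mean coding transcript (not overlapping).

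The second question was whether the subunits responded to the inhibitor of EZH2, whose mark canonical PRC1 reads. The mark itself is not measured in these tables. No subunit passed the threshold. With treatment alone, 0 of 9 subunits were called by edgeR, in comparison to 0% of all genes, and likewise 0 of 9 by limma-voom (0 genes called in all) and by DESeq2 (59 genes called in all). By edgeR 0 of 9 had an unadjusted p-value below 0.05 in comparison to 6.0% of all genes. With the replicate block, 0 of 9 were called by each of the 3 tools in comparison to 3.65% of all genes by edgeR. At an unadjusted p-value below 0.05 in the blocked edgeR fit there were 2 of 9, Cbx6 and Phc2, in comparison to 16.7% of all genes. In bulk RNA, fewer cells of a type and less RNA per cell cannot be told apart.

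The fitted changes were small. The log2 fold change was negative for 8 of 9 subunits with treatment alone, with a median of -0.14, whereas 50.3% of all tested genes were negative, with a median of 0.00. This count rested in part on 1 library: it was 5 of 9 without DMSO replicate 2, 7 of 9 with the block, and 5 of 9 with the block and without replicate number 2 or without replicate number 3. The median absolute log2 fold change was 0.15 for the subunits and 0.19 for all genes, and 0.12 and 0.19 in the blocked fit. The largest blocked value of any subunit was 0.34, for Cbx6. Genes that were called in the blocked fit had a median absolute value of 0.68. They were selected by that same fit, so this value is no yardstick for genes that were not called. Only Cbx2 had groups that did not overlap in CPM, 1 of 9 in comparison to 10.9% of all genes. The ratio of GSK-126 to DMSO had the same sign in all 3 pairs for 3 of 9 subunits, Bmi1 upward and Cbx2 and Phc2 downward, in comparison to 39% of all genes.

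**Figure D3:**
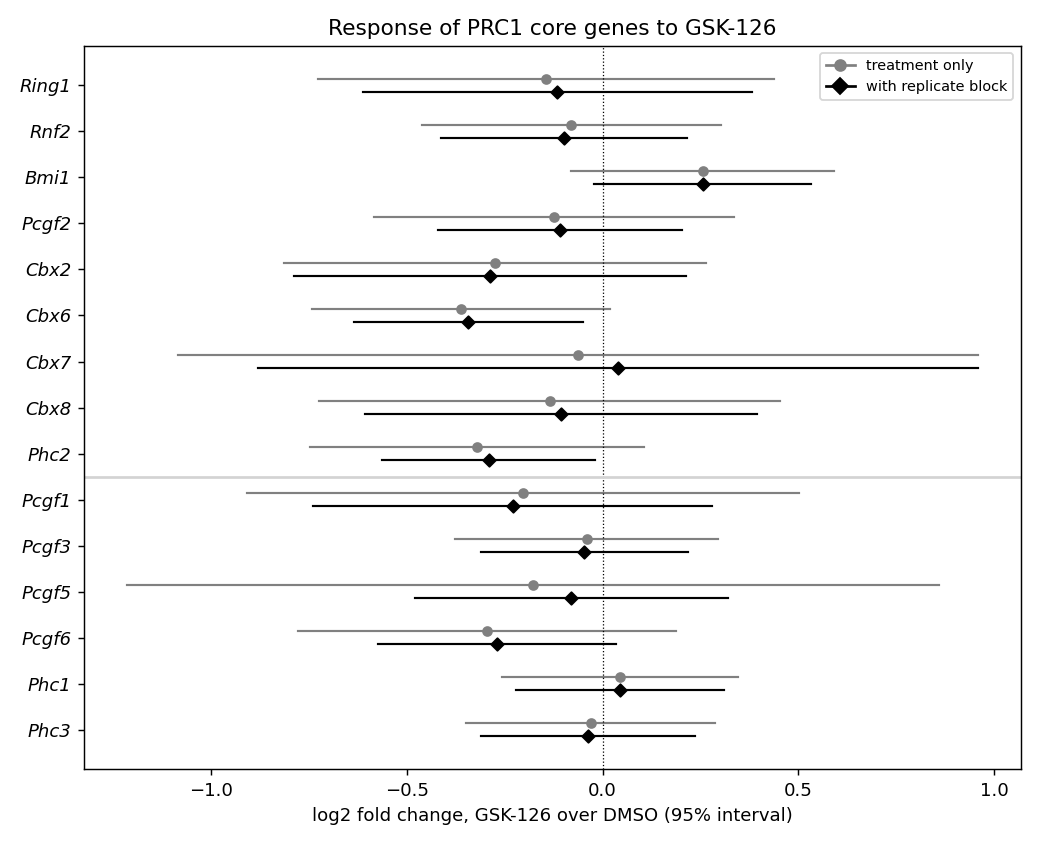
Log2 fold change of GSK-126 over DMSO with its 95% interval for the 9 PRC1 subunit genes (above the grey line) and the 6 other core paralogs (below it), from the edgeR fit with treatment only (grey) and with the replicate block (black). The intervals of Cbx6 and Phc2 in the blocked fit lie below 0 before adjustment, and the widest interval is that of Cbx7 among the subunits.

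Cbx6 had the lowest unadjusted p-value of the 9. Its level was 208, 315 and 260 CPM with DMSO and 213, 196 and 199 CPM with GSK-126. DMSO replicates 2 and 3 were above every GSK-126 library, and DMSO replicate 1 lay among them. The blocked fold was 0.788 (95% interval 0.644 to 0.965, log2 fold change -0.34 ± 0.13 SE), with an unadjusted p of 0.0252 and an adjusted p of 0.215 by edgeR. Within pairs the log2 ratio was 0.04, -0.68 and -0.38 for replicates 1, 2 and 3. Without replicate number 1 the blocked log2 fold change was -0.53 and passed the threshold (edgeR adjusted p = 0.0122), and without replicate number 2 it was -0.16 (adjusted p = 0.708), so its size rested on which pair was included. A merged exon share of 5.31% overlaps Npcd on the same strand, a gene that had 0 counts in all 6 libraries. Reads over shared bases may have been left unassigned as ambiguous, so this 0 does not measure the effect of the overlap.

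Phc2 measured 175, 290 and 218 CPM with DMSO and 173, 190 and 183 CPM with GSK-126, and DMSO replicate 1 again lay within the GSK-126 range. The blocked fold was 0.817 (0.677 to 0.987), with an adjusted p of 0.261 by edgeR. The log2 ratios within pairs were -0.02, -0.61 and -0.25. As for Cbx6, the call depended on the pair: without replicate number 1 the blocked log2 fold change was -0.43 (adjusted p = 0.0440), and without replicate number 2 it was -0.12 (adjusted p = 0.784).

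DMSO replicate 2 was the highest of the 6 libraries for 6 of 9 subunits (Ring1, Pcgf2, Cbx2, Cbx6, Cbx7 and Phc2), whereas it was the highest for 23.1% of all genes tested. DMSO replicate 1 was the lowest for 3 of 9 (Ring1, Cbx7 and Cbx8), in comparison to 17.7% of all genes. Cell type markers also differed between these libraries. The summed level of 10 granule neuron markers, all of them above 0 in every library, was 4662, 6197 and 4882 CPM in DMSO replicates 1, 2 and 3 and 3274, 4976 and 3888 CPM with GSK-126. The summed level of 8 astrocyte markers was 7212, 2376 and 4338 CPM with DMSO and 7458, 2480 and 3827 CPM with GSK-126. The DMSO library with the highest Cbx6, Phc2, Ring1 and Cbx7 was thus the library with the highest granule neuron and the lowest astrocyte sum. The GSK-126 libraries did not repeat this. Replicate 2 had the highest granule neuron and the lowest astrocyte sum among them. It had their highest Phc2 (190 CPM) but their lowest Cbx6 (196 CPM) and Cbx7 (3.735 CPM), and its Ring1 (14.7 CPM) lay between the others. The part of these markers in the subunit levels was not tested.

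Bmi1 was the subunit with a positive fitted change in both fits. It measured 90.8, 72.1 and 74.1 CPM with DMSO and 91.8, 107 and 84.7 CPM with GSK-126, and 1 DMSO library lay inside the GSK-126 range. The fold was 1.19 in both fits, with a 95% interval of 0.946 to 1.51 with treatment alone (edgeR adjusted p = 0.836) and 0.985 to 1.45 with the block (adjusted p = 0.346). The log2 ratio was 0.02, 0.56 and 0.19 within pairs, above 0 in 3 of 3. Commd3, its upstream neighbour on the same strand, stood at 62.1 ± 2.45 and 65.4 ± 2.67 CPM with a blocked log2 fold change of 0.07 (adjusted p = 0.812).

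Cbx2 measured 9.81, 10.5 and 10.04 CPM with DMSO and 8.58, 9.76 and 6.72 CPM with GSK-126, and all 3 GSK-126 libraries lay below the DMSO ones. The gap between the groups was small, from 9.76 to 9.81 CPM. The counts behind these values were 59 to 103, and the blocked fold was 0.820 (0.579 to 1.16; edgeR adjusted p = 0.588). Its neighbour Cbx8 measured 11.5, 18.8 and 20.4 CPM with DMSO and 17.2, 12.9 and 16.1 CPM with GSK-126, with pairs of opposite sign and a blocked fold of 0.929 (0.657 to 1.32).

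The ligases did not differ between agents beyond their spread. Rnf2 stood at 73.8 ± 5.09 CPM with DMSO and 69.9 ± 14.9 CPM with GSK-126, with a blocked fold of 0.934 (0.752 to 1.16). Ring1 stood at 17.5 ± 5.20 and 15.7 ± 2.32 CPM, with a fold of 0.923 (0.654 to 1.30). Pcgf2 stood at 33.4 ± 7.83 and 30.6 ± 3.88 CPM, with a fold of 0.928 (0.748 to 1.15). These intervals leave room for changes of about the size fitted for Cbx6, so these data do not show that the levels were alike.

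Cbx7 had the widest interval of the 9. It measured 2.42, 8.13 and 4.85 CPM with DMSO and 5.996, 3.735 and 4.897 CPM with GSK-126, a range of 3.36-fold over 6 libraries. The log2 ratios within pairs were 1.23, -1.08 and 0.01, and the sign of the fitted value changed between -0.06 with treatment alone and 0.04 with the block. The blocked interval of the fold ran from 0.544 to 1.94. The Poisson intervals of the lowest and the highest count did not overlap, but these libraries differed in agent and depth. Within DMSO, replicates 1 and 2 held 21 and 65 counts, with Poisson intervals of 13.0 to 32.1 and 50.2 to 82.9. These libraries were picked as extremes, so spread beyond counting error was not tested.

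**Figure D4:**
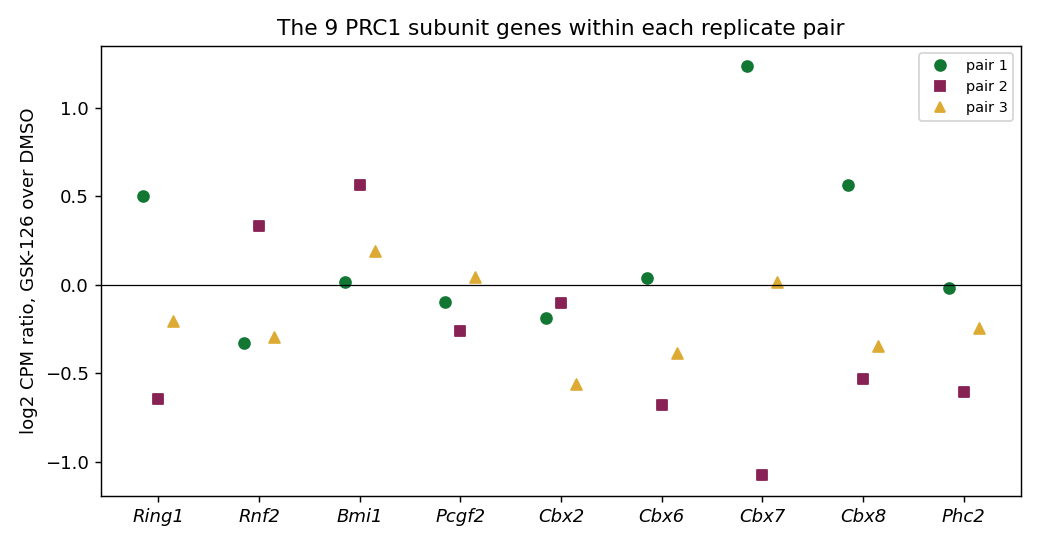
Log2 CPM ratio of GSK-126 over DMSO for the 9 PRC1 subunit genes, 1 point for each replicate pair (circles, squares and triangles for pairs 1, 2 and 3). Bmi1 lies above 0 and Cbx2 and Phc2 lie below 0 in all 3 pairs, while the pairs of Cbx7 run from -1.08 to 1.23.

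Of the 6 other paralogs, 0 were called in either edgeR fit (3.65% of all genes with the block). In both fits 0 had an unadjusted p below 0.05 (16.7% of all genes with the block). Pcgf6 had the lowest adjusted p with the block, 0.364, at a log2 fold change of -0.27. Phc1 and Phc3 had blocked log2 fold changes of 0.05 and -0.04. Pcgf5 differed by replicate number, with 3.54, 1.02 and 1.51 RPKM with DMSO and 2.59, 1.30 and 1.46 with GSK-126, in the order of the astrocyte sums above for both agents.

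All 4 listed CBX genes had a negative log2 fold change with treatment alone (median -0.21), and 3 of the 4 with the block. Their summed level was 232, 352 and 295 CPM with DMSO and 245, 223 and 227 CPM with GSK-126, with DMSO replicate 1 inside the GSK-126 range. The sums of the PCGF family (275 to 308 CPM with DMSO, 273 to 316 with GSK-126) and of the RING genes (86.5 to 95.2 and 76.9 to 102 CPM) overlapped between agents.

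Genes that work with or against PRC1 were also without calls. Of 17 further partners of canonical and variant complexes, 17 were tested and 0 were called in either fit (3.65% of all genes with the block), with 4 at an unadjusted p below 0.05 in the blocked fit, near the 16.7% of all genes, and a median log2 fold change of -0.08 there. The most abundant were Dcaf7, a scaffold of the PCGF3 and PCGF5 complexes (391 ± 49.2 and 330 ± 46.9 CPM, blocked log2 fold change -0.24, edgeR adjusted p = 0.227), and Usp7, a deubiquitinase of the PCGF1 complex (187 ± 14.04 and 153 ± 16.8 CPM, -0.30, adjusted p = 0.176). Of 6 genes of the deubiquitinases that remove the PRC1 mark, 0 were called (3.65% of all genes with the block). With treatment alone 6 had negative values in comparison to 50.3% of all genes (median -0.15). Only 3 of the 6 were lower in all 3 pairs, and DMSO replicate 2 was the highest library for Asxl2, Asxl3, Bap1 and Usp16. Bap1, the catalytic subunit, stood at 107 ± 10.9 and 95.7 ± 4.94 CPM and its cofactor Asxl1 at 91.0 ± 2.12 and 82.7 ± 9.53 CPM. The HP1 genes, chromobox proteins that read H3K9 methylation, gave 0 of 3 calls (3.65% of all genes with the block). Cbx5 (221 ± 6.77 and 211 ± 11.7 CPM) and Cbx3 (92.7 ± 1.11 and 86.0 ± 8.48 CPM) were the most abundant of them.

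The PRC2 core, the target of the compound, likewise had 0 of 6 genes called, in comparison to 3.65% of all genes with the block. Its most abundant members were the histone chaperones Rbbp4 (188 ± 7.61 and 177 ± 6.23 CPM) and Rbbp7 (139 ± 5.91 and 135 ± 12.7 CPM). Ezh2, named here as the enzyme that GSK-126 inhibits and not by the rule for named genes, stood at 32.4 ± 5.54 CPM with DMSO and 32.9 ± 5.76 CPM with GSK-126, with a blocked log2 fold change of 0.02 (edgeR adjusted p = 0.967).

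Of 16 classical Polycomb target genes, 7 passed the filter, and 2 of those 7 rose in the blocked fit, in which 3.65% of all genes were called. They were Cdkn2a and Cdkn2b, the cell cycle inhibitor genes of the Ink4 locus that BMI1 represses in other cells. Cdkn2a had 2.65, 5.50 and 10.04 CPM with DMSO and 18.4, 10.7 and 21.8 CPM with GSK-126, with groups that did not overlap. With the block, the log2 fold change reached 1.56 ± 0.32 SE at an adjusted p of 0.0228 by edgeR, and with treatment alone 1.48 at an adjusted p of 0.806. Cdkn2b had 9.11, 12.8 and 28 CPM with DMSO and 36.3, 22.8 and 39.3 CPM with GSK-126, and it was higher in 3 of 3 pairs (blocked log2 fold change 1.08 ± 0.25 SE, adjusted p = 0.0376, in comparison to 0.824 with treatment alone).

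The marker lists give the RNA of cell type markers beside these values. They do not measure cell numbers, since the expression of a marker within its cells can change as well. The edgeR fit with the block called 3.65% of all genes, and the fit with treatment alone called 0% of all genes. With the block, 5 of 10 granule neuron markers were lower, Slc17a7 (-2.16) and Gabra6 (-1.42) with the largest log2 changes. Among those not called, Pax6 stood at 0.04 (edgeR adjusted p = 0.895) and Reln at -0.13 (adjusted p = 0.708). The summed level of the 10 ran from 4662 to 6197 CPM with DMSO and from 3274 to 4976 CPM with GSK-126. Of 8 endothelial and mural markers, 7 were tested and 3 were higher (Pdgfrb, Acta2 and Flt1), while Cldn5 had 0 to 22 counts. Cdh5 was lower in 3 of 3 pairs (blocked log2 fold change -0.30, edgeR adjusted p = 0.240) and Kdr stood at -0.01. With treatment alone, 5 of the 7 fitted changes were positive and 2 were negative. The sums of 481 to 752 and 834 to 1036 CPM did not overlap, and Acta2 alone held 274 to 506 and 556 to 702 CPM of them. Of 6 fibroblast markers 1 was higher (Col1a1), with sums of 6831 to 8852 and 8879 to 9848 CPM, and of 8 microglia markers 2 were higher (Cd68 and C1qb), with sums of 292 to 512 and 352 to 733 CPM. Cspg4 was higher among 8 oligodendrocyte lineage markers (431 to 656 and 496 to 783 CPM), and Slc32a1 was lower among 8 markers of cerebellar GABAergic neurons (201 to 268 and 173 to 202 CPM). Of 10 cell cycle markers (310 to 466 and 335 to 473 CPM) and 8 astrocyte markers (2376 to 7212 and 2480 to 7458 CPM), 0 were called. The part of these other cells in the levels of the PRC1 genes, Cdkn2a and Cdkn2b was not tested.

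Of 17 neighbouring or overlapping genes outside the CBX group, 11 were tested, and 1 was called in the blocked fit in comparison to 3.65% of all genes. This was Nptxr, a neuronal pentraxin receptor gene of the synapse next to Cbx6 on chromosome 15, which was lower. It measured 202, 394 and 249 CPM with DMSO and 133, 236 and 158 CPM with GSK-126 (log2 fold change -0.66, edgeR adjusted p = 0.00674, lower in 3 of 3 pairs). On the far side of Cbx7, Pdgfb, a growth factor gene of endothelial cells and neurons, stood at 13.0 ± 4.27 and 20.5 ± 5.54 CPM (0.66, adjusted p = 0.0754). Across the 6 libraries the genes whose level followed Cbx6 most closely among 11418 genes with at least 10 CPM were Otub1 (Pearson r = 0.989), Otud5 (0.987) and Stx18 (0.986), a description over 6 libraries taken as 3 pairs.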

How the data were processed

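Poly(A)-selected RNA of mouse CGNs, 6 libraries taken as 3 pairs, was sequenced as paired ends. Per the study's methods and processing notes, the authors trimmed reads with Trimmomatic 0.38, aligned them with STAR 2.7.2b to GRCm38 (mm10) and counted them over exons with HTSeq; the strand setting is not given in the sources used here, so reads of genes that overlap on opposite strands cannot be told apart (3.83% of the merged exons of Rnf2 and 1.54% of those of Cbx7). The deposited values were raw read counts per gene, with no normalization and no pooling. Reads assigned to a gene made up 39.2% to 41.6% of each library and reads over no exon 44.8% to 46.7%; the summary rows of each table entered neither the library sizes nor any test. Multiply aligned reads were not assigned. GENCODE M21 held all 55341 symbols and gave the gene models.

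Genes were filtered with filterByExpr, scaled with TMM and tested with the quasi-likelihood test of edgeR 4.0.16 (R 4.3.3), with Benjamini-Hochberg adjustment over 16343 genes. The authors' methods name DESeq2 without model terms. Alternatives were a replicate block, other scaling, no filter, DESeq2 1.42.0, limma-voom (limma 3.58.1), other gene lengths and leaving out libraries. The edgeR script was tested on simulated data. Log2 ratios within pairs used a prior count of 2. Deviations from the group means correlated by 0.35, 0.50 and 0.52 between libraries of the same number and by -0.41 to -0.01 between others, and a replicate in culture is defined in the methods as CGNs from pooled litters, so the numbers were taken as pairs. No pair of libraries agreed within sampling noise (lowest chi-square per degree of freedom 10.9). Precision is limited by the number of pairs.

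The subunits and gene lists were chosen with earlier results of these data known. Named were all 9 subunits, 6 other core paralogs, called genes or else the 2 most abundant genes of each further list, neighbours and overlapping genes, and the 3 genes most correlated with the subunit of lowest blocked p. Results for 1 further gene are not reported here.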

Additional observations from a re-analysis of the deposited data

How the results depend on the processing

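None of the 9 subunits was called with treatment alone under any scaling, filter, tool or left-out library, and in the blocked fits the exception was the one without replicate number 1, which called 2 (Cbx6 at -0.53 and Phc2 at -0.43), so that this count ran from 0 to 2. Over all genes, 0 were called with treatment alone and 597 with the replicate block in edgeR, 85 without a filter, 59 with DESeq2, 674 with DESeq2 and the block, and 620 with limma-voom and the block. Leaving out a replicate number in the blocked fit gave 178 to 704 calls (704 without number 1, 178 without number 2 and 359 without number 3), and leaving out a library with treatment alone gave 0 each time. The block changed no call of a subunit when all 3 pairs were used.

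The sign of Cbx7 turned from -0.06 with treatment alone to 0.04 with the replicate block, 0.056 with DESeq2 and the block, 0.112 with limma-voom and 0.009 with limma-voom and the block. Leaving out a library moved the log2 fold change of Ring1 from -0.313 to 0.123, Rnf2 from -0.265 to 0.033, Pcgf2 from -0.243 to 0.091, Cbx7 from -0.394 to 0.443 and Cbx8 from -0.34 to 0.037. In the blocked fit without a replicate number, Ring1 ran from -0.435 to 0.173, Rnf2 from -0.297 to 0.021 (0.002 without number 3), Cbx7 from -0.554 to 0.654 (0.058 without number 3), Cbx8 from -0.441 to 0.121 (0.021 without number 3), Cbx6 from -0.53 to -0.16 and Phc2 from -0.43 to -0.12. The cause of these moves was not tested.

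For the shares, the longest transcript gave 28.3% for Bmi1 and 80.2% for Cbx6, and the mean coding transcript gave 90.1% for Cbx6 and 72.5% for Phc2. Leaving out a library moved the GSK-126 minus DMSO difference from -3.23 to 3.19 points for Ring1, from -3.57 to -1.95 for Cbx6, from 4.395 to 8.89 for Bmi1 and from -7.68 to -1.91 for Phc2. Cbx7 rested on 21 to 72 counts a library, and the source of its spread was not tested.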
